A study of Caenorhabditis elegans with 9 samples.

Results

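In whole wild type *C. elegans*, 56 genes that carry no name were at their highest level in Day 6 adults and at least 4-fold lower both in L4 larvae, the last larval stage, and in Day 15 adults. These genes are known only by a sequence name, such as T20D4.7, which joins the name of a sequenced clone with a number. They were chosen by 3 limits: a mean log2 expression value of at least 6 at Day 6, a Day 6 mean at least 2 above the L4 mean on the log2 scale, and a Day 6 mean at least 2 above the Day 15 mean. The genes C17H12.8 and F55G11.8 were left out by name, and neither would have met the limits. Of 6717 unnamed genes on the array, 56 met them (0.834%), out of 17118 genes in all. The peak at Day 6 is therefore how the genes were chosen and is described here without a test.

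Ages were compared in 9 GeneChip genome arrays of the Bristol N2 strain. Of these, 3 held RNA of L4 larvae, 3 of adults at Day 6 and 3 of adults at Day 15. The replicates came from 3 independently propagated populations, all fed the *E. coli* strain OP50. Whether the same populations were sampled at each age is not stated in the sources used here. Larvae and adults were all kept at 20°C. Both adult ages had been transferred to plates with 0.05 mg/ml FUDR, which blocks the hatching of eggs. The larvae were harvested before this transfer, so adult age and drug exposure cannot be told apart in a comparison with L4 larvae. Arrays had medians between 5.42 and 5.73 on the log2 scale. Values under 4 lie near the background, and a fold change is given with such means set to 4, which makes it a lower bound. In whole animals, fewer cells of a type and less RNA per cell cannot be told apart.

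An unnamed gene in the worm is one that neither a mutant screen nor a close relation to a characterized family has led anyone to name. Genes of this kind are common in the worm genome, and several of its gene families lie in clusters of neighbouring copies on the chromosome arms. By Day 6 at this temperature, wild type hermaphrodites have passed their main period of egg laying, and by Day 15 most tissues show visible wear. In the RefSeq gene table, 53 of the 56 genes are protein-coding, C25A11.10 and Y41D4B.18 are pseudogenes, and W05H9.3 is a non-coding RNA. No function is given for them in the sources used here, and they are described by their levels, their neighbours and their probe sets.

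The L4 array of replicate 2 stood apart from the other L4 arrays. The mean over 16 markers of oocytes and the eggshell, such as oma-2 (a regulator of oocyte maturation) and cbd-1 (an eggshell component), was 8.25, 10.98 and 9.30 in the L4 arrays of replicates 1, 2 and 3, 11.74 to 12.10 in the Day 6 arrays, and 11.16 to 11.47 in the Day 15 arrays. Replicate 2 was at least 2-fold above both other L4 arrays in 14 of these 16 markers, and the mean over 10 pharynx markers was lower in it (6.34, 5.04 and 6.23). Of the pharynx markers, 3 (phat-1, phat-5 and ceh-22) were under 4 at every age. None of the markers of oocytes and the eggshell was under 4 at every age. Each comparison with L4 larvae below is therefore also given without that array where it matters.

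Limits on the differences were met narrowly by some genes. ZC412.3 and C24B5.4 exceeded their L4 means by 2.03 and 2.04, while Y69H2.9 (1.99) and F11E6.4 (1.95) just missed that limit. C17C3.5 and ZK829.9 exceeded their Day 15 means by 2.03 and 2.05, while T26H5.4 and F31F7.1, both at 1.96, did not qualify. On the Day 6 level itself, C23G10.11 (6.05) and T28A11.2 (6.06) were just inside, and F42G2.5 (5.91) and F36G9.7 (5.78) just outside.

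W10G11.2 had the largest peak, if a peak is measured by the smaller of its differences from the other ages. Its log2 values were 2.56, 4.13 and 2.85 in L4 larvae, 9.85 to 10.03 at Day 6, and 5.65, 5.26 and 4.74 at Day 15. The Day 6 arrays lay far above all others, at least 62.2-fold over L4 and 26.8-fold over Day 15. No other of the 56 genes was this far above both other ages.

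F21H7.3, W06G6.10 and Y9C9A.16 were near background at both other ages. F21H7.3 read 1.58, 1.68 and 1.78 in L4 larvae, 6.76, 5.75 and 6.31 at Day 6, and 2.18, 1.65 and 2.18 at Day 15. W06G6.10 read 2.28, 3.17 and 2.37 in L4 larvae, 6.68, 7.19 and 6.67 at Day 6, and 2.58, 1.74 and 1.93 at Day 15. Both were above 4 in the Day 6 arrays only. Y9C9A.16 averaged 2.68 ± 0.13 in L4 larvae, 6.28 ± 0.12 at Day 6 and 2.81 ± 0.23 at Day 15 (SD, n = 3 each), so the other ages could not be ordered.

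The pseudogene C25A11.10 was also above 4 only at Day 6. It read 1.90, 2.42 and 1.59 in L4 larvae, 7.38, 7.83 and 7.35 at Day 6, and 3.79 in each of the 3 Day 15 arrays. Y110A2AL.9 averaged 3.02 ± 0.15 in L4 larvae, 7.12 ± 0.32 at Day 6 and 3.71 ± 0.61 at Day 15, with 1 Day 15 array at 4.39. In all, 8 of the 56 genes had means under 4 in both L4 larvae and Day 15 adults, 9 more had a mean under 4 in L4 larvae only, and 4 more at Day 15 only. The remaining 35 were above 4 at every age, so that Day 6 marked a higher level of a transcript already measured at the other ages.

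K09C4.5, T16G1.5 and F42A8.1 had peaks of the last kind or near it. K09C4.5 read 4.64, 4.53 and 4.50 in L4 larvae, 8.30, 7.74 and 8.69 at Day 6, and 3.03, 3.08 and 2.77 at Day 15. T16G1.5 read 6.83, 8.07 and 7.09 in L4 larvae, 10.77, 10.47 and 10.94 at Day 6, and 4.68, 4.88 and 4.76 at Day 15, and its Day 6 mean was 62.0-fold over its Day 15 mean. The difference between these means, 5.95, was the largest of the 56 genes, followed by 5.84 in ZC412.3. F42A8.1 averaged 7.72 ± 1.64 in L4 larvae, 11.25 ± 0.28 at Day 6 and 6.81 ± 0.57 at Day 15, with a wide spread between the L4 arrays. Altogether 7 genes were at least 10-fold above both other ages with means under 4 set to 4.

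The 6 probe sets with the highest Day 6 signals were already well above background in L4 larvae, although signals of different probe sets do not rank the amounts of their transcripts. The probe set of F21C10.10 read 9.59, 8.20 and 8.82 in L4 larvae, 12.18, 12.13 and 12.17 at Day 6, and 10.45, 9.96 and 9.29 at Day 15. F48D6.4 averaged 9.33 ± 0.42 in L4 larvae, 11.80 ± 0.15 at Day 6 and 9.48 ± 0.89 at Day 15. C14C6.2 averaged 9.08 ± 0.87 in L4 larvae, 11.70 ± 0.14 at Day 6 and 8.34 ± 0.20 at Day 15. The Day 6 arrays of F21C10.10, F48D6.4 and C14C6.2 were separate from all others and close to each other. F15E6.4 and M28.10 had Day 6 means of 11.85 and 11.77 but were much lower at Day 15 (6.80 and 6.24), as was F13H8.3, described below.

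Over the 56 genes, means ran from 1.68 to 9.68 in L4 larvae (median 5.29), from 6.05 to 12.16 at Day 6 (median 8.49) and from 2.00 to 9.90 at Day 15 (median 5.33). The Day 6 mean exceeded the L4 mean by 2.03 to 7.46 (median 3.06) and the Day 15 mean by 2.03 to 5.95 (median 2.99). The median level over the 56 genes in single arrays was 5.04, 5.64 and 4.81 in L4 larvae, 8.75, 8.31 and 8.78 at Day 6, and 5.30, 5.35 and 5.39 at Day 15. All Day 6 arrays were above all other arrays in 50 of the 56 genes, against 12.9% of the 11758 genes with a mean of at least 4 at some age. The rule used that contrast, so nothing is read from this share.

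**Figure D1:**
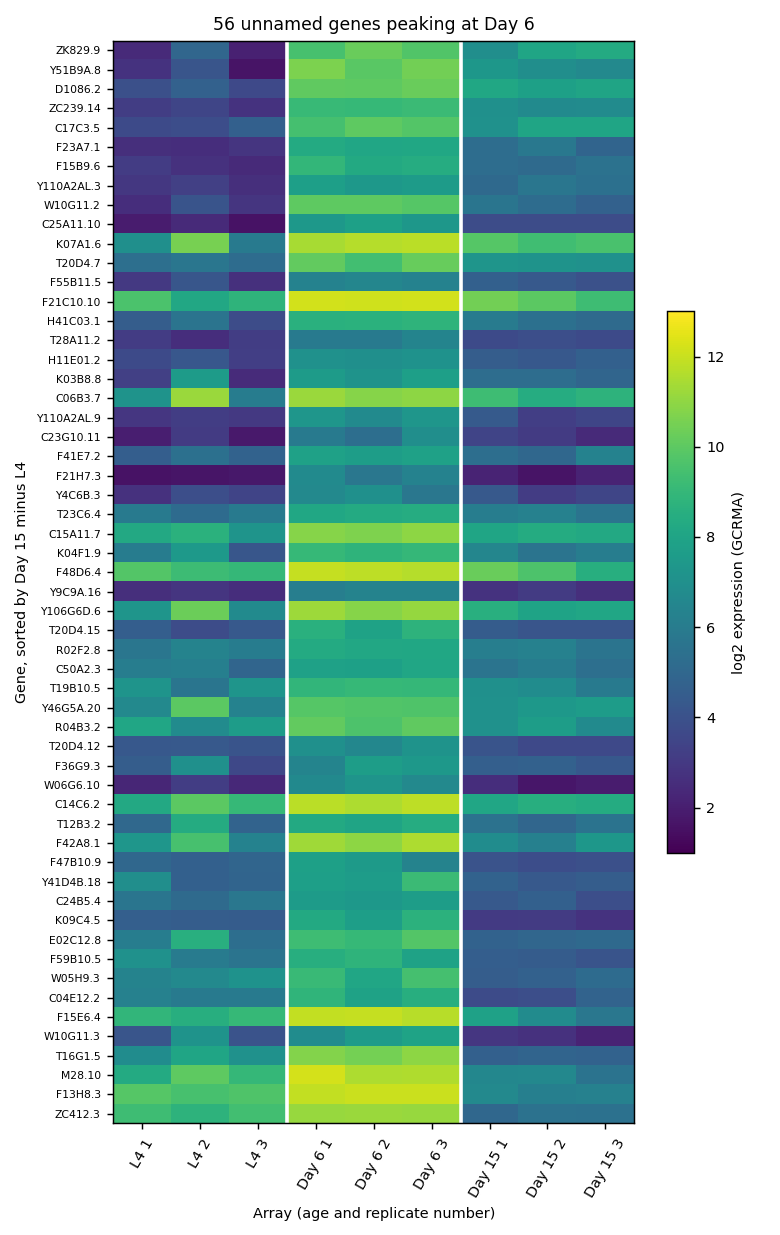
Log2 expression (colour) of the 56 genes (rows, sorted by the Day 15 minus L4 difference, largest at the top) in the 9 arrays (columns, L4, Day 6 and Day 15, with replicate numbers). The Day 6 block is brightest in nearly every row, genes such as ZK829.9 at the top stay bright at Day 15, genes such as ZC412.3 at the bottom are dark at Day 15 only, and L4 replicate 2 is bright in rows such as C06B3.7.

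Spread between replicates was smallest at Day 6. The median SD over the 56 genes was 0.58 in L4 larvae, 0.23 at Day 6 and 0.33 at Day 15, beside 0.41, 0.18 and 0.22 over all genes tested. An SD over 1 occurred in 14 genes in L4 larvae, with the highest, 2.74, in K03B8.8. It occurred in no gene at Day 6, where the highest was 0.85 in Y41D4B.18, and in 1 gene at Day 15, F15E6.4, whose Day 15 arrays read 7.87, 6.78 and 5.74.

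How far the late adult level returned to the larval level differed widely between the genes. This comparison, Day 15 against L4, is built from both differences that the rule limited. The rule did not set its sign, but it left out genes near their Day 6 level at either other age. In the limma fit over all 11758 genes tested, 13 of the 56 genes were higher at Day 15 than in L4 larvae (23.2%, where 32.3% of all genes tested were called higher) and 11 were lower (19.6%, where 26.7% of all genes tested were called lower). A gene was called where its adjusted p (Benjamini-Hochberg) was under 0.05 and the change at least 2-fold. The rule shaped both shares, so nothing is read from their being below those of all genes. Without L4 replicate 2 the share called higher was 33.9%, where 33.3% of all genes tested were called higher. With all arrays, the median difference was 0.14 in the 56 genes and 0.23 in all genes tested. The Day 15 mean was above the L4 mean in 31 genes and below it in 25, and within 0.5 of it in 16.

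ZK829.9 had the largest measured difference between Day 15 and L4 larvae, from an L4 mean near background. It read 2.42, 4.95 and 2.09 in L4 larvae, 9.49, 10.25 and 9.74 at Day 6, and 6.93, 8.06 and 8.35 at Day 15. All Day 15 arrays lay above all L4 arrays, by 4.63 in the mean (standard error 0.71, adjusted p = 3.7e-04 in limma), or 3.46 with values under 4 set to 4, where D1086.2 (3.76) and C17C3.5 (3.50) had larger differences. L4 replicate 2 was the highest of its L4 arrays. The probe set of ZK829.9 carries the mark for several transcripts, so its signal may not be that of this gene alone.

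Y51B9A.8, D1086.2, ZC239.14 and C17C3.5 also kept a high level at Day 15. Y51B9A.8 read 2.78, 4.18 and 1.63 in L4 larvae, 10.61, 9.92 and 10.44 at Day 6, and 7.36, 6.91 and 6.66 at Day 15, and had the largest Day 6 minus L4 difference of the 56 genes, 7.46. Its Day 15 mean was 4.11 above L4 (standard error 0.55, adjusted p = 1.7e-04 in limma). D1086.2 read 3.94, 4.73 and 3.65 in L4 larvae, 10.05, 10.04 and 10.24 at Day 6, and 8.17, 7.83 and 8.0 at Day 15. In neither gene did the ages overlap, and D1086.2 was 3.89 higher at Day 15 than in L4 larvae (standard error 0.27, adjusted p = 2.7e-06 in limma).

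ZC239.14 averaged 6.84 ± 0.15 at Day 15 and 3.15 ± 0.38 in L4 larvae, a difference of 3.69 (SD, n = 3 each, adjusted p = 8.2e-07 in limma). Its probe set carries the mark of probes shared with other sequences, so its signal may not be that of this gene alone. C17C3.5 averaged 7.73 ± 0.57 at Day 15 and 4.07 ± 0.53 in L4 larvae, a difference of 3.66 (adjusted p = 2.1e-05 in limma). The arrays of the 3 ages did not overlap in either gene. The other 8 genes called higher were F23A7.1, F15B9.6, Y110A2AL.3, W10G11.2, C25A11.10, T20D4.7, F55B11.5 and F21C10.10, with differences between 2.64 and 1.03. Of the 13 genes, 9 had an L4 mean under 4. The pseudogene C25A11.10 was under 4 at Day 15 as well, and its difference of 1.82 became 0.00 with values under 4 set to 4.

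ZC412.3 and F13H8.3 went the other way. The probe set of ZC412.3 carries the mark for several transcripts, and that of F13H8.3 carries none. ZC412.3 read 9.27, 8.74 and 9.39 in L4 larvae, 11.16, 11.19 and 11.13 at Day 6, and 5.0, 5.51 and 5.46 at Day 15. The Day 15 arrays were lowest by a wide margin, and the Day 15 mean fell by 3.81 relative to L4 larvae (standard error 0.22, adjusted p = 9.1e-07 in limma). F13H8.3 read 9.82, 9.52 and 9.71 in L4 larvae, 11.89, 12.05 and 12.06 at Day 6, and 6.66, 6.18 and 6.29 at Day 15. Its arrays fell into 3 tight and separate levels, with a Day 15 minus L4 difference of -3.31 (standard error 0.18, adjusted p = 6.5e-07 in limma).

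M28.10, T16G1.5 and W10G11.3 complete the 5 largest falls. M28.10 averaged 9.11 ± 0.84 in L4 larvae, 11.77 ± 0.41 at Day 6 and 6.24 ± 0.59 at Day 15, a Day 15 minus L4 difference of -2.87 (standard error 0.45, adjusted p = 4.4e-04 in limma). T16G1.5, whose arrays are given above, had a difference of -2.56 (standard error 0.31, adjusted p = 8.4e-05 in limma). In both genes the ages did not overlap, and the probe set of T16G1.5 carries the mark for several transcripts. W10G11.3 read 4.18, 7.18 and 4.08 in L4 larvae, 6.84, 7.59 and 7.94 at Day 6, and 2.90, 2.73 and 2.20 at Day 15. Its difference of -2.54 (standard error 0.75, adjusted p = 0.0136 in limma) rests in part on L4 replicate 2 and was -1.52 without it (adjusted p = 0.00213). With values under 4 set to 4 it was -1.15 and no longer called (adjusted p = 0.39 in limma).

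F15E6.4, C04E12.2, W05H9.3, F59B10.5, K09C4.5 and C24B5.4 were the other genes called lower, with differences between -2.02 and -1.22. In all 11 genes called lower, the Day 15 arrays lay below every L4 array, and none had an L4 mean under 4. The Day 15 arrays lay above every L4 array in 11 of the 13 genes called higher. The share over all genes with the same call was not computed, so nothing is read from these counts. For K09C4.5, the difference of -1.60 became -0.56 with values under 4 set to 4.

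The remaining 32 genes were not called, with differences from -1.72 in E02C12.8 to 1.75 in K07A1.6. T20D4.15 is an example of a return to the larval level within the spread. It read 4.60, 3.79 and 4.33 in L4 larvae, 8.63, 7.91 and 8.74 at Day 6, and 4.48, 4.16 and 4.15 at Day 15, a Day 15 minus L4 difference of 0.02 (standard error 0.28, adjusted p = 0.945 in limma). A p over the threshold does not show that the levels were equal, and K07A1.6, for example, missed it (adjusted p = 0.128) with a standard error of 0.96.

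**Figure D2:**
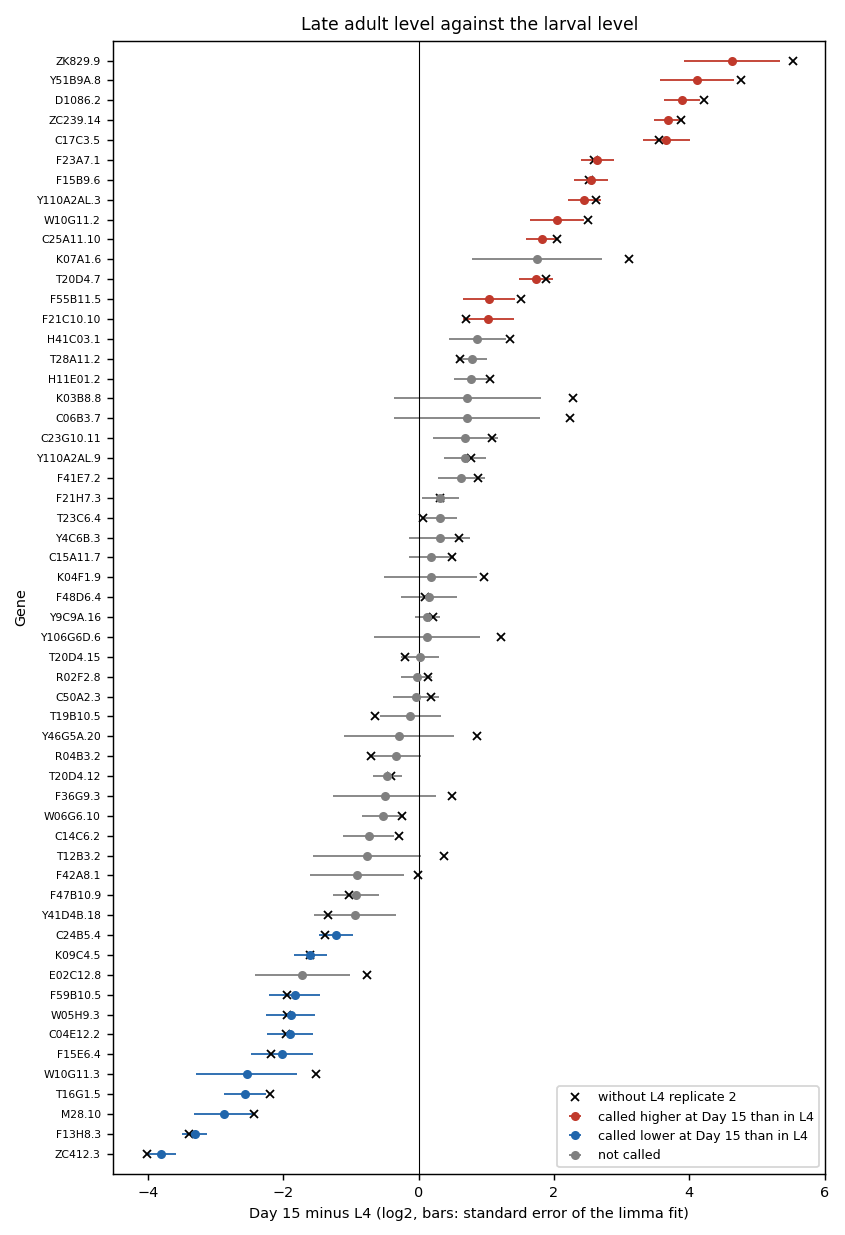
Day 15 minus L4 difference of each of the 56 genes (log2, points, with bars of 1 standard error of the limma fit), coloured by whether the gene was called higher, called lower or not called, and the same difference without L4 replicate 2 (crosses). Differences run from 4.63 in ZK829.9 to -3.81 in ZC412.3, and the crosses lie far right of the points in K03B8.8, C06B3.7 and K07A1.6.

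L4 replicate 2 was already near the Day 6 level for a subset of the genes. In 18 of the 56 genes (32.1%) it lay at least 2-fold above both other L4 arrays, against 7.88% of all genes tested and 17.5% of the 3441 genes called higher at Day 6 than in L4 larvae. The rule used the L4 arrays, and no test was made of this share. In these 18 genes the array exceeded the mean of the other L4 arrays by a median of 2.79, while the median was -0.07 in the other 38 genes and 0.02 in all genes tested. Below both other L4 arrays by at least 2-fold, it lay in only 1 of the 56 genes, T19B10.5, where the share over all genes tested was 10.2%. The genes named from this subset were chosen after their values were seen.

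K03B8.8 and C06B3.7 were the most extreme. K03B8.8 read 3.29, 7.57 and 2.46 in L4 larvae, 7.60, 7.18 and 7.78 at Day 6, and 5.27, 5.27 and 4.93 at Day 15. C06B3.7 read 7.16, 11.18 and 6.03 in L4 larvae, 11.20, 10.83 and 10.96 at Day 6, and 9.28, 8.44 and 8.78 at Day 15. In both genes, L4 replicate 2 fell among the Day 6 arrays and the other L4 arrays lay below every Day 15 array. T12B3.2, Y46G5A.20, F36G9.3 and W10G11.3 likewise had L4 replicate 2 at or above a Day 6 array, and with K03B8.8 and C06B3.7 they are the 6 genes whose Day 6 arrays were not above all others.

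K07A1.6 and Y106G6D.6 reached almost as far. K07A1.6 read 6.99, 10.53 and 5.94 in L4 larvae, 11.44, 11.67 and 11.77 at Day 6, and 9.84, 9.31 and 9.57 at Day 15. Y106G6D.6 read 7.24, 10.30 and 6.74 in L4 larvae, 11.23, 10.81 and 11.09 at Day 6, and 8.58, 7.97 and 8.09 at Day 15. In both, L4 replicate 2 was above every Day 15 array and the other L4 arrays were below every Day 15 array. At the other end, W10G11.2 and Y51B9A.8 had L4 replicate 2 at 4.13 and 4.18, far below their Day 6 levels. Their other L4 values lay under 4, near background, so the size of the excess cannot be judged in these genes.

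**Figure D3:**
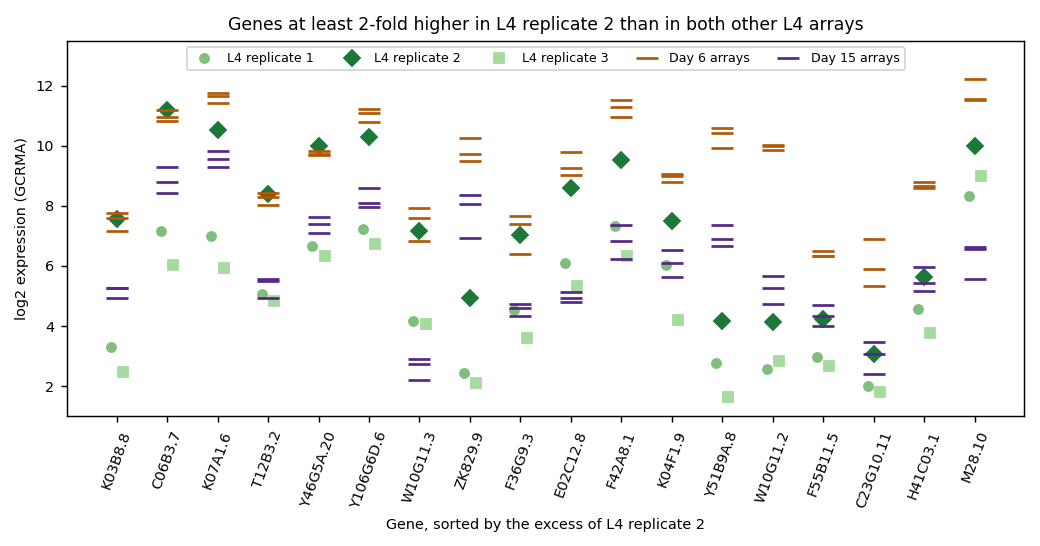
Log2 expression of the 18 genes in which L4 replicate 2 was at least 2-fold above both other L4 arrays, sorted by that excess, with single L4 arrays as green markers and the Day 6 and Day 15 arrays as brown and purple bars. The dark green diamond of L4 replicate 2 lies among the Day 6 bars in K03B8.8 and C06B3.7 at the left and lies furthest below the Day 6 mean, by 6.14, in Y51B9A.8.

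The L4 array of replicate 3 was the lowest for another, partly overlapping subset. It lay at least 2-fold below both other L4 arrays in 7 of the 56 genes (12.5%), where the share over all genes tested was 0.859%, and above both in 0, where it was 0.978%. These genes were F42A8.1, Y51B9A.8, K04F1.9, C06B3.7 and K07A1.6, in which replicate 2 was high as well, and C15A11.7 and C50A2.3, in which it was not. In Y51B9A.8 the gap lay near background, between 2.78 in replicate 1 and 1.63 in replicate 3. The rule asked for a low L4 mean and so favours genes with a low L4 array. No share among genes called higher at Day 6 was computed for replicate 3, so nothing is read from its share. C50A2.3 read 6.09, 6.17 and 4.90 in L4 larvae, 7.86, 7.80 and 8.08 at Day 6, and 5.63, 6.05 and 5.37 at Day 15. Replicate 1 was at least 2-fold above both other L4 arrays in 2 genes, Y41D4B.18 and F59B10.5, and that far below them in 0 genes. The shares over all genes tested were 4.57% and 4.07%.

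The markers of oocytes and the eggshell were also high in L4 replicate 2, in the numbers given above. Among the other L4 arrays, replicate 1 was above replicate 3 in 16 of the 18 genes, while replicate 3 was above replicate 1 in 16 of 16 of those markers. The share over all genes was not computed for this order. The 18 genes were picked by their L4 values, so nothing is read from the order. At Day 15, none of the 16 markers was called lower than at Day 6, with a median difference of -0.61. The 56 genes were chosen for a Day 15 level at least 4-fold below Day 6, so they cannot be set against the markers there. The 8 hypodermis and cuticle markers went both ways in L4 replicate 2, by a median of -0.45 relative to the other L4 arrays. The cuticle collagen genes rol-6 (11.55, 9.53 and 11.90), bli-1 (9.51, 7.73 and 10.12) and dpy-7 (5.65, 4.42 and 5.03) and the hedgehog-related gene wrt-2 (7.20, 4.98 and 7.44) were lowest in replicate 2. Of the 8, nhr-23, a nuclear receptor needed for molting (5.05, 7.65 and 6.36), and elt-3, a hypodermal transcription factor, were at least 2-fold higher in replicate 2 than in both other L4 arrays. The part of tissue makeup or exact stage in the levels of the 18 genes was not tested.

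Without L4 replicate 2, more of the genes were called. Then 19 genes were higher at Day 15 than in L4 larvae (33.9%, against 33.3% of the whole set tested) and 12 were lower (21.4%, against 28.1% of the whole set tested). The genes K03B8.8, C06B3.7, K07A1.6, Y106G6D.6, H41C03.1, H11E01.2 and C23G10.11 joined those called higher, and F21C10.10 was no longer among them. K07A1.6 then differed by 3.11 (adjusted p = 1.2e-05 in limma), K03B8.8 by 2.28 (adjusted p = 6.0e-05) and C06B3.7 by 2.24 (adjusted p = 2.8e-04), from only 2 L4 arrays each. The 11 genes called lower stayed lower, and F47B10.9 was added with a difference of -1.03. Of the 18 genes with a high L4 replicate 2, 12 were not called with all arrays, 4 were higher and 2 were lower.

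A few of the genes lie side by side on their chromosome, by the gene order of the RefSeq table (assembly WBcel235). T20D4.12 and T20D4.15 are adjacent protein-coding genes on chromosome V, with T20D4.7 on one side and C04E12.2 on the other, each separated from the nearer of the pair by 2 other protein-coding genes. T20D4.7 read 5.38, 5.71 and 5.22 in L4 larvae, 10.12, 9.37 and 10.21 at Day 6, and 7.28, 7.17 and 7.09 at Day 15. T20D4.12 read 4.31, 4.35 and 4.13 in L4 larvae, 7.01, 6.57 and 7.17 at Day 6, and 4.11, 3.66 and 3.65 at Day 15. Both had their lowest Day 6 value in replicate 2, as did T20D4.15 and C04E12.2 (8.87, 7.90 and 8.54). This held for 33 of the 56 genes in all. The share over all genes was not computed, so nothing is read from this order.

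The late levels in this group differed from gene to gene. T20D4.7 was higher at Day 15 than in L4 larvae by 1.74 (adjusted p = 2.4e-04 in limma), T20D4.12 and T20D4.15 were not called, and C04E12.2 was lower, with a difference of -1.90 (adjusted p = 8.7e-04 in limma). T20D4.11, which lies next to T20D4.12 and is no member, averaged 8.23 in L4 larvae, 9.17 at Day 6 and 6.33 at Day 15. The chemoreceptor genes srx-121 and srbc-2, between C04E12.2 and T20D4.15, were under 2 at every age.

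W10G11.2 and W10G11.3 are adjacent on chromosome II, and their Day 15 means lay on opposite sides of their L4 means. W10G11.2 was higher at Day 15 than in L4 larvae by 2.04 (standard error 0.40, adjusted p = 0.00158 in limma), and W10G11.3 was among the falls above, where its call was lost with values under 4 set to 4. The next gene beyond W10G11.2, W10G11.1, averaged 2.15 in L4 larvae, 5.74 at Day 6 and 3.24 at Day 15, the same order of ages at a Day 6 level just under the limit. The gene on the other side, the C-type lectin gene clec-127, was near background at every age.

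Y110A2AL.3 and Y110A2AL.9, also adjacent on chromosome II, were both near background in L4 larvae and both highest at Day 6. Y110A2AL.3 read 2.94, 3.29 and 2.62 in L4 larvae, 7.77, 7.38 and 7.57 at Day 6, and 5.08, 5.69 and 5.42 at Day 15. Y110A2AL.9 read 2.88, 3.17 and 3.00 in L4 larvae, 7.32, 6.76 and 7.29 at Day 6, and 4.39, 3.23 and 3.50 at Day 15. Against L4 larvae, the Day 15 difference was 2.45 (adjusted p = 2.1e-05 in limma) in Y110A2AL.3 and 0.69 (adjusted p = 0.0688) in Y110A2AL.9, and the difference between the genes was not tested.

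**Figure D4:**
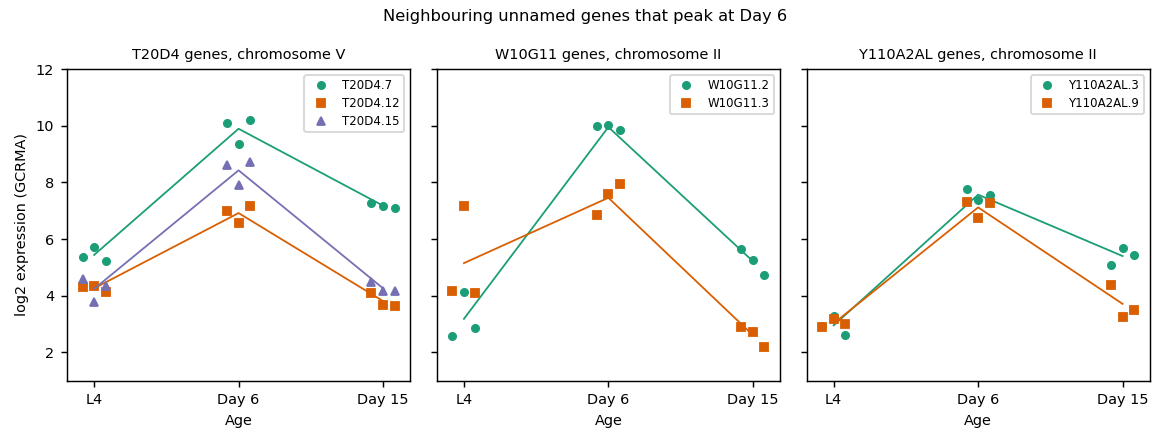
Log2 expression in single arrays (points) and means (lines) by age for neighbouring genes among the 56, with T20D4.7, T20D4.12 and T20D4.15 on chromosome V at the left, W10G11.2 and W10G11.3 on chromosome II in the middle, and Y110A2AL.3 and Y110A2AL.9 on chromosome II at the right. All peak at Day 6, and T20D4.7, W10G11.2 and Y110A2AL.3 end higher at Day 15 than in L4 larvae while W10G11.3 ends lower.

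Some other neighbours of the 56 genes also rose by Day 6 and fell by Day 15. They were counted by calls of at least 2-fold, which is looser than the limits that chose the 56 genes. Of 100 immediate protein-coding neighbours that are not among the 56, 84 were measured and 47 tested. In 8 of these 47 (17%) the level was called both higher at Day 6 than in L4 larvae and lower at Day 15 than at Day 6, against 4.75% of all genes tested. D1086.1, next to D1086.2, averaged 4.89 in L4 larvae, 11.50 at Day 6 and 9.84 at Day 15. Next to F15E6.4, dct-7, named as a target of the insulin-pathway transcription factor DAF-16, averaged 2.76 in L4 larvae, 10.63 at Day 6 and 8.76 at Day 15. The others were C04E12.4, K09C4.10, W06G6.9, W10G11.1, hlh-13 and slc-9B.1. Of these, W06G6.9 and hlh-13 were near background even at Day 6, with means of 4.1 and 4.32. K09C4.10 changed little, from 6.03 in L4 larvae to 7.07 at Day 6 and 5.82 at Day 15. Neighbouring genes can be related copies that share probe sequence, which was not examined here.

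By chromosome, 20 of the 56 genes (35.7%) lie on chromosome V, which holds 23.1% of unnamed genes on the array, and 13 (23.2%) lie on chromosome II, which holds 18.4%. Chromosome X has 10 (17.9%, against 15.7%), chromosome IV has 8 (14.3%, against 15.9%), chromosome I has 3 (5.36%, against 14.1%) and chromosome III has 2 (3.57%, against 12.3%). These shares are a description, and genes in 1 cluster are not independent.

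The probe sets of most of the genes were designed against a single transcript. Of the 56 probe sets used, 44 carry no mark, 9 carry the mark for several transcripts and 3 (T20D4.15, ZC239.14 and the non-coding RNA W05H9.3) the mark for probes shared with other sequences. Only 5 genes have another probe set, and all 5 of these were highest at Day 6. In C14C6.2, T20D4.15 and T23C6.4 the other probe set also met the limits.

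The other probe set of T20D4.15, which has no mark, read 3.99, 3.39 and 4.01 in L4 larvae, 7.45, 7.20 and 7.50 at Day 6, and 3.84, 3.51 and 3.18 at Day 15. The other probe set of K07A1.6 read 7.25, 10.37 and 6.29 in L4 larvae, 11.41, 11.15 and 11.42 at Day 6, and 9.62, 8.98 and 9.47 at Day 15, so it held the excess of L4 replicate 2 as well and missed the limit with a Day 6 minus Day 15 difference of 1.97. The probe sets of E02C12.8 disagreed in L4 larvae. The one used read 6.09, 8.58 and 5.33 there, highest in replicate 2, and the other read 7.60, 5.80 and 5.74, highest in replicate 1, with a Day 6 minus L4 difference of 1.22.

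Genes that have a name met the same limits about as often, 88 of 10401 (0.846%). The 10 with the largest peaks were drd-10, col-101, sdz-6, drd-50, amt-1, clec-41, cest-34, hen-1, clec-97 and col-158. The cuticle collagen gene col-101 averaged 5.55 ± 1.77 in L4 larvae, 11.70 ± 0.29 at Day 6 and 3.83 ± 0.42 at Day 15. The ammonium transporter gene amt-1 averaged 3.37 ± 1.11 in L4 larvae, 9.01 ± 0.66 at Day 6 and 2.51 ± 0.26 at Day 15 (SD, n = 3 each). drd-10 had a smaller difference of 6.45 between Day 6 and the other ages, beyond the 4.74 of W10G11.2.

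The named genes that met the limits included 8 of 220 C-type lectin genes (clec), 7 of 73 cytochrome P450 genes (cyp), 6 of 128 collagen genes (col), 5 of 64 UDP-glucuronosyltransferase genes (ugt), 3 of 47 pqn genes, 2 of 4 drd genes, 2 of 43 nssp genes, 2 of 13 P-glycoprotein genes (pgp) and 2 of 177 chemoreceptor genes of the str family. These are the families with at least 2 such genes, and none was tested for enrichment. Between Day 15 and L4 larvae, 29 of the 88 (33%) were called higher, beside 32.3% of all genes tested, and 8 (9.09%) were called lower, beside 26.7%. The same limits chose these 88 genes, so nothing is read from these shares. L4 replicate 2 was at least 2-fold above both other L4 arrays in 18 of the 88 (20.5%), beside 7.88% of all genes tested and 17.5% of those called higher at Day 6 than in L4 larvae.

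Markers of the intestine, the largest somatic organ of the worm, did not peak at Day 6. The mean over 15 intestinal markers, such as elt-2 (a transcription factor of the intestine) and ges-1 (a gut esterase), lay between 10.65 and 11.16 in the L4 arrays, between 8.54 and 9.0 at Day 6, and between 6.99 and 7.40 at Day 15. Of these markers, 1 was called higher and 9 lower at Day 6 than in L4 larvae, and 0 were called higher and 10 lower at Day 15 than at Day 6. No intestinal marker was under 4 at every age. Other lists had their highest mean at Day 6. Coelomocytes are scavenger cells of the body cavity. The mean over 3 of their markers lay between 5.65 and 6.23 in L4 larvae and between 6.49 and 6.71 at Day 6. At Day 15 it lay between 4.55 and 4.78. Of the 3, only 1 was called higher at Day 6 than in L4 larvae, and 2 were called lower at Day 15 than at Day 6. The mean over 7 markers of the gonadal sheath and spermatheca lay between 7.31 and 7.49 in L4 larvae. It lay between 7.82 and 7.95 at Day 6 and between 7.23 and 7.49 at Day 15. One of the markers, lim-7, was under 4 at every age. Of the 6 tested, 2 were called higher and 1 lower at Day 6 than in L4 larvae. At Day 15, 0 were called higher and 2 lower than at Day 6. Of 5 yolk protein genes, 0 were called higher at Day 6 than in L4 larvae and 4 were called lower at Day 15 than at Day 6. The part of any of these tissues in the levels of the 56 genes was not tested.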

How the data were processed

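Total RNA of whole worms was amplified and hybridized to 9 arrays, 3 per age. The authors normalized the scans with GCRMA (version not given in the sources used here) and deposited the log2 values of all probe sets in 1 table. Of 22625 probe sets, 20766 have 1 gene in the array's annotation, 887 several and 972 none, and 20701 have a RefSeq gene ID. Symbols, chromosomes and gene order come from the RefSeq table of WBcel235. The number of per-sample columns not used was 0.

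Each gene was represented by its probe set with the highest mean. Genes with a mean of at least 4 in at least 1 age were tested with lmFit and eBayes of limma 3.58.1 under R 4.3.3 (3 groups in 1 fit, Benjamini-Hochberg over all 11758 genes), and called at an adjusted p under 0.05 and a 2-fold change. All 56 members passed this filter, which their Day 6 level made certain. The procedure was tested on simulated data. Tables and figures used matplotlib 3.10.9, pandas 2.3.3, numpy 2.4.6 and Python 3.11.15. The number of arrays limits the precision.

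The genes, marker lists and alternatives were chosen with earlier results of these data known. Genes named are the 10 with the largest smaller difference, the 6 with the highest Day 6 mean, the 5 largest called changes each way between Day 15 and L4, neighbours, genes whose other probe sets do not peak at Day 6 (0 found), those at the limits, and the 10 named genes with the largest peaks. The rule asked for neighbours by distance, which was replaced by adjacency because the build of the table is not stated. Protein and promoter sequence were not used here. Other genes named were chosen after their values were seen.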

Additional observations from a re-analysis of the deposited data

How the results depend on the processing

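The number of unnamed genes meeting the limits was 56, and 116 with a limit of 1.5 on the differences and 15 with a limit of 3. Under the other alternatives for the probe set, symbols, scaling and floor it was 47 to 62, and leaving out each array in turn gave 50 to 62. Between Day 15 and L4, the genes called higher numbered 10 to 13 and those called lower 8 to 12 under alternatives for the arrays in the fit, filter, probe set, scaling, variance model, threshold, test and floor, against 13 and 11, and 11 to 19 and 11 to 13 on leaving out each array in turn. With values under 4 set to 4, C25A11.10, F21C10.10, F55B11.5, K09C4.5 and W10G11.3 lost their call. The lowest value of F21C10.10 was 8.20, so the floor did not alter it. All 17118 genes were tested in this setting, so the shared estimate of spread and the adjustment of p changed as well. W10G11.3 had a difference of -1.15 there (adjusted p = 0.39 in limma) and missed an adjusted p under 0.01, as well as the methods' t-test. The other 9 of the 10 largest changes kept their direction and their call in every alternative that measured them. ZK829.9, ZC412.3, T16G1.5 and ZC239.14 have only a probe set with a mark, so the alternative with unmarked probe sets did not measure them. In deviations from the age means, arrays of equal replicate number had correlations of -0.06 to 0.19 (9 pairs). Of the 9 arrays, 4 correlated best with an array of their own number. These values cannot settle whether replicate numbers pair the arrays. With the replicate number as a block, 13 and 11 genes were called. Groups of 3 arrays are too small to name an outlying array by a test.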
